A study of Mus musculus with 12 samples.

Results

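The genes described here encode subunits of the mitochondrial respiratory chain and of ATP synthase, whose transcripts were measured by RNA sequencing of whole mouse livers. They were chosen by symbol among protein-coding genes: the Nduf genes of complex I, Sdha to Sdhd of complex II, the Uqcr genes of complex III, the nuclear genes Cox5 to Cox8 of complex IV and the Atp5 genes of complex V. Of 81 genes with such a symbol, 74 reached a value of 3.32, the log2 of 10, in at least 3 libraries and were tested among 12637 genes in all. They comprised 36 genes of complex I, 4 of complex II, 8 of complex III, 11 of complex IV and 15 of complex V, spread over 19 chromosomes. The libraries came from female C57BL/6 mice, an inbred strain, in 4 groups of 3. Mice of the curcumin group ate a high-fat, high-sugar diet (HFHS) for 14 weeks and received, by vein at weeks 12 and 13, liposomes loaded with curcumin, a polyphenol of turmeric. The calcitriol group had the same diet and schedule with liposomes loaded with calcitriol, the active hormone made from vitamin D. The HFHS group had the diet without treatment. The last group is titled CNT. Its labels repeat the diet text of the other groups and do not state how it differed from HFHS, so it is given by its title. Livers of the curcumin and calcitriol groups were collected 2 weeks after injections began. The diet was used to induce steatohepatitis, a fatty liver with inflammation. Mice given empty liposomes were not analysed here, so an effect of either compound and one of the injections or the liposomes cannot be told apart. Since no title states that libraries of 1 group came from separate animals, p-values reflect the spread between these samples only.

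The respiratory chain passes electrons from NADH (complex I) and succinate (complex II) through complex III to oxygen at complex IV, and pumps protons across the inner mitochondrial membrane as it does so. ATP synthase, complex V, lets the protons flow back through a rotating ring of c subunits and makes ATP. In liver this system runs on electrons from fatty acid oxidation and the citrate cycle, and pays for glucose and urea synthesis. Most subunits are encoded in the nucleus, and the remaining ones, at the core of all complexes but complex II, in mitochondrial DNA.

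Deposited values were on a log2 scale without counts, so sequencing depth is unknown and counting intervals cannot be given. A difference below is a difference between group means of these log2 values, ± its standard error from a linear model over all 12 libraries, and a gene is called at an adjusted p under 0.05 in limma (Benjamini-Hochberg over 12637 genes, two-sided). The HFHS libraries stood apart from each other: on the first principal component replicates 1 and 3 lay at -32.8 and -28.4, and replicate 2 at 3.09, among the other groups. The labelled tissue fitted its markers, with all 8 hepatocyte markers tested and a summed level of 20.71 to 21.02 in curcumin livers, 20.1 to 20.7 in calcitriol livers, 20.5 to 20.8 in HFHS livers and 20.74 to 21.03 in CNT livers (log2 of the summed values). The lowest sums were in calcitriol replicate 3, HFHS replicate 3 and HFHS replicate 1. Alb, the highest of the 8 markers, weighs most in these sums and stood at 19.65 in calcitriol replicate 3. With each marker weighted equally, the mean deviation from the markers' own means was -0.14 in that library. It was -0.16 in calcitriol replicate 1, -0.25 in HFHS replicate 1 and -0.39 in HFHS replicate 3. The summed level of 7 macrophage markers ran from 12.5 to 12.8 in curcumin livers, 12.8 to 13.0 in calcitriol livers, 12.5 to 13.1 in HFHS livers and 12.1 to 12.5 in CNT livers. The stronger markers weigh most in this sum. With each marker weighted equally, the mean deviation was 1.01, -0.026 and 0.34 in HFHS replicates 1 to 3. It was at most 0.17 in the other groups. The summed level of 6 stellate cell and matrix markers ran from 12.4 to 12.5 in curcumin livers and 12.3 to 12.4 in calcitriol livers. It ran from 12.3 to 13.5 in HFHS livers and 12.0 to 12.2 in CNT livers, with HFHS replicates 1 and 3 highest. Sums of 5 endothelial markers ran from 11.2 to 11.4 in curcumin, 11.9 to 12.0 in calcitriol, 11.3 to 11.9 in HFHS and 11.2 to 11.8 in CNT livers, and those of 5 erythroid markers from 13.4 to 13.5, 13.4 to 13.7, 12.1 to 13.0 and 12.0 to 13.1 in these groups. Only 1 of 5 adipocyte markers, Cfd, was tested, and the adipocyte sum was 9.26 in HFHS replicate 3 and 5.20 in calcitriol replicate 1, against at most 4.85 in the other 10 libraries. None of 6 striated muscle markers was tested, with Ckm and Myh4 listed at 0. The part of these marker levels in the results below was not tested, and in whole tissue fewer cells of a type and less RNA per cell cannot be told apart.

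The subunit genes stood high or low together, and libraries of the same group differed in this, those of HFHS most in all complexes but complex IV, where the SD was 0.133 in curcumin livers and 0.119 in HFHS livers (n = 3 each). For each library, the deviation of every gene from its own mean over the 12 libraries was averaged over the genes of a complex. For complex I this mean deviation was 0.14, 0.26 and -0.0073 in curcumin replicates 1 to 3, -0.088, -0.086 and -0.19 in calcitriol livers, -0.21, 0.10 and -0.25 in HFHS livers and 0.018, 0.087 and 0.22 in CNT livers. Curcumin and CNT livers thus stood mostly above the mean and calcitriol livers below it, while the HFHS group was split, replicate 2 standing with the CNT and curcumin libraries and replicates 1 and 3 lowest of all. For complex V the values were 0.11, 0.21 and -0.015 in curcumin livers, -0.078, -0.091 and -0.23 in calcitriol livers, -0.17, 0.10 and -0.23 in HFHS livers and 0.057, 0.11 and 0.21 in CNT livers. Complex III gave 0.17, 0.29 and -0.00085 in curcumin livers, -0.075, -0.079 and -0.25 in calcitriol livers, -0.21, 0.11 and -0.28 in HFHS livers and 0.045, 0.099 and 0.19 in CNT livers, the same split. Complex IV gave 0.14, 0.26 and -0.0077 in curcumin livers, -0.081, -0.099 and -0.19 in calcitriol livers, -0.18, 0.02 and -0.20 in HFHS livers and 0.058, 0.087 and 0.18 in CNT livers, and here HFHS replicate 2 lay below all CNT libraries. In complex II the lowest library was calcitriol replicate 3, with 0.12, 0.18 and 0.0016 in curcumin livers, -0.0092, -0.083 and -0.31 in calcitriol livers, -0.22, 0.16 and -0.25 in HFHS livers and 0.12, 0.19 and 0.093 in CNT livers.

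**Figure D1:**
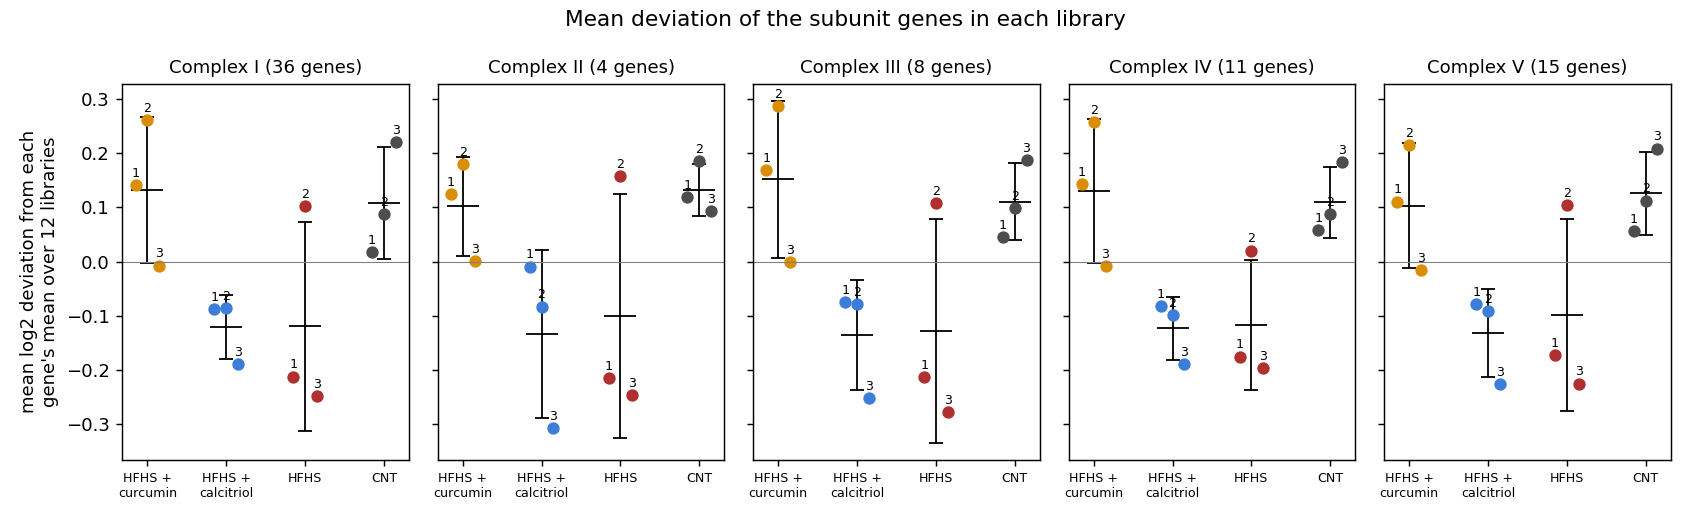
Mean deviation of the subunit genes (log2, vertical axis) in each of 12 libraries, one panel per complex, with groups along the horizontal axis, points numbered by replicate, and the group mean ± SD as black lines. In all 5 panels calcitriol livers lie below 0 and CNT livers above it, and HFHS replicate 2 lies above 0, apart from HFHS replicates 1 and 3.

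Single genes followed the same order. In 73 of the 74 genes the means of both the curcumin and the CNT groups lay above the means of both the calcitriol and the HFHS groups, an arrangement found in 21.2% of all genes tested. The exception was Atp5s. Curcumin replicate 2 was the highest library for 45 of the 74 genes and CNT replicate 3 for 21, while HFHS replicate 3 was the lowest for 32, calcitriol replicate 3 for 28 and HFHS replicate 1 for 12. All 74 genes lay below their own mean in calcitriol replicate 3, and 73 lay above it in curcumin replicate 1 and in curcumin replicate 2. The median SD of a subunit gene between the libraries of a group was 0.135 in curcumin livers, 0.078 in calcitriol livers, 0.196 in HFHS livers and 0.099 in CNT livers, against 0.091, 0.083, 0.124 and 0.114 over all genes tested. The 74 genes are therefore not 74 independent measurements, since a library that was high for one was high for most.

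**Figure D2:**
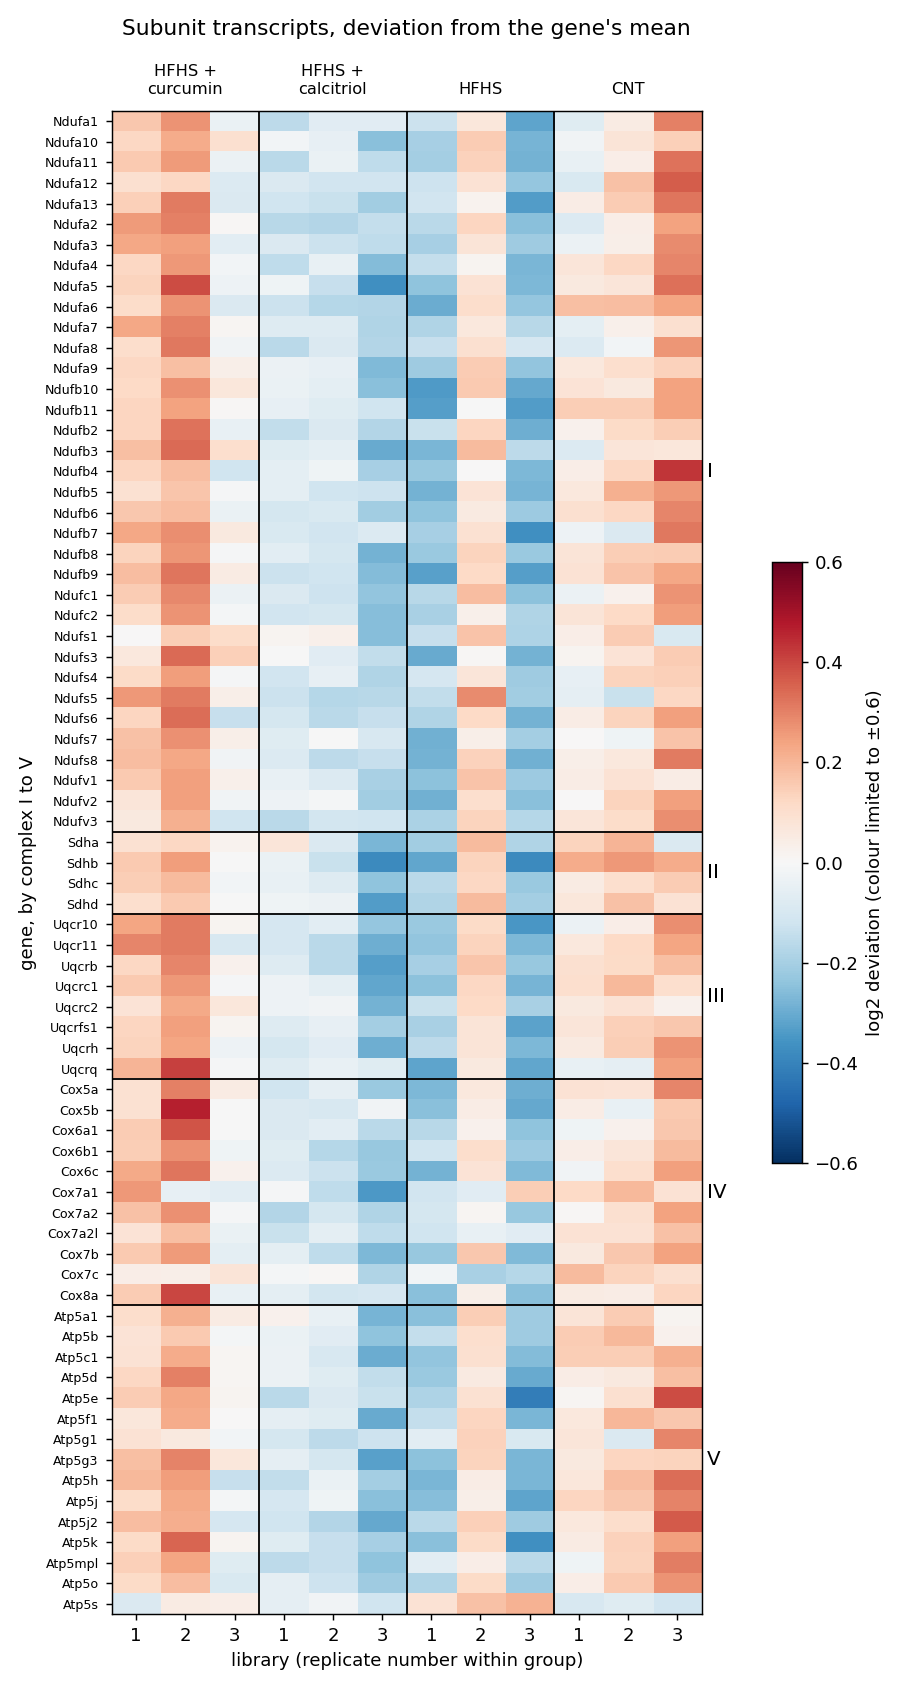
Deviation of each of 73 of the 74 subunit genes (rows, ordered by complex I to V) from its mean over 12 libraries (columns, 3 per group, numbered by replicate), on a log2 colour scale limited to ±0.6. Nearly all rows are red in curcumin replicates 1 and 2 and blue in HFHS replicates 1 and 3 and in the calcitriol columns, while the last row, Atp5s, is red in all 3 HFHS libraries.

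HFHS livers were set against CNT livers to see how the untreated model group differed. Ndufb11, Ndufb5 and Atp5j fell and Atp5s rose in HFHS livers, and the other 70 genes were not called. The share called was below that of all genes: 4 of 74 subunit genes, against 11.9% of the 12637 genes, with 3 called lower where the background was 5.36% and 1 called higher where it was 6.55%. The common shift was nevertheless downward: 73 of 74 differences were below 0, as were 52.1% of all genes, with a median of -0.23 (a level 14.9% lower) against -0.011 over all genes tested. At an unadjusted p under 0.05, 35 genes were lower, where 15.1% of all genes were, and in 16 all 3 HFHS libraries lay below all 3 CNT libraries, which held for 14.1% of all genes. Under quantile normalization the median was -0.14, with 62 of 74 differences below 0.

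Ndufb11 (ENSMUSG00000031059, chrX:20615326-20617619, minus strand, GRCm38), an accessory subunit in the membrane arm of complex I, stood at 9.76, 10.09 and 9.76 in HFHS livers and at 10.24, 10.24 and 10.33 in CNT livers. All HFHS libraries lay below all CNT libraries, HFHS replicate 2 closest to them. The difference was -0.40 ± 0.093 (adjusted p = 0.0236). Ndufb5 (ENSMUSG00000027673, chr3:32736990-32751566, plus strand), another accessory subunit of the membrane arm, stood at 9.74, 10.11 and 9.75 in HFHS livers and at 10.09, 10.24 and 10.28 in CNT livers. Here HFHS replicate 2 lay above CNT replicate 1, so the groups overlapped. The difference was -0.34 ± 0.098 (adjusted p = 0.0446). Atp5j (ENSMUSG00000022890, chr16:84827866-84835625, minus strand), which encodes coupling factor 6 in the peripheral stalk that holds the head of ATP synthase still, stood at 10.36, 10.64 and 10.30 in HFHS livers and at 10.74, 10.77 and 10.91 in CNT livers. The groups did not overlap. The difference was -0.37 ± 0.10 (adjusted p = 0.0394). Atp5s (ENSMUSG00000054894, chr12:69724950-69744660, plus strand) is the gene of coupling factor B and was counted in complex V by its symbol. It stood at 6.37, 6.45 and 6.49 in HFHS livers and at 6.18, 6.21 and 6.16 in CNT livers. All 3 HFHS libraries were higher, replicate 2 included. The difference was 0.25 ± 0.075 (adjusted p = 0.0482).

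**Figure D3:**
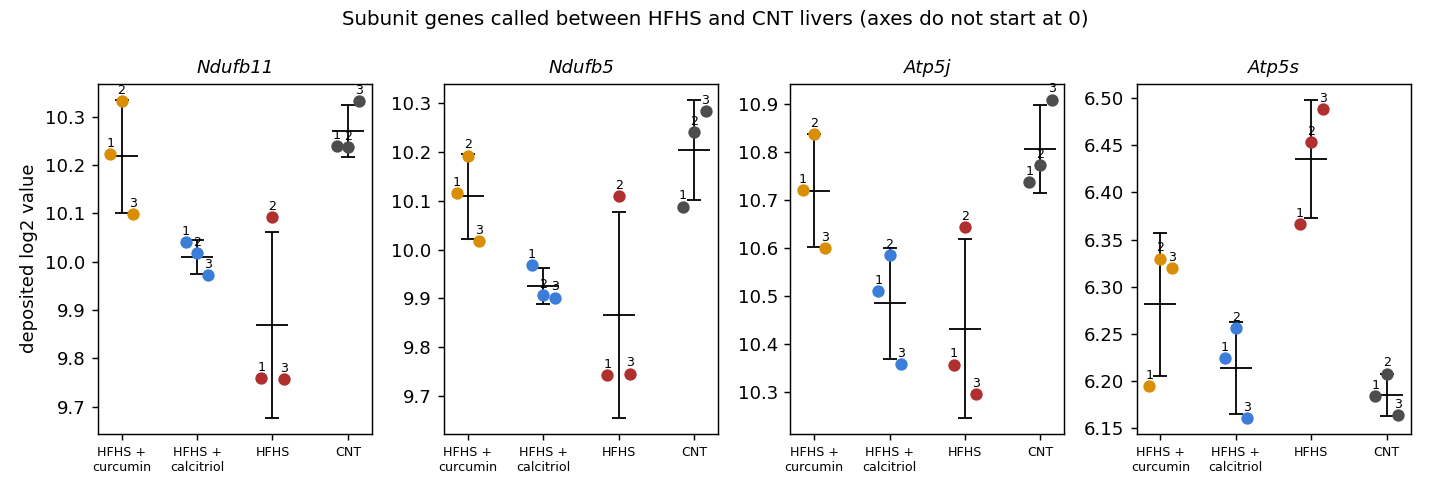
Deposited log2 value (vertical axis, not starting at 0) of the 4 subunit genes called between HFHS and CNT livers, in each library by group, with points numbered by replicate and the group mean ± SD as black lines. Ndufb11, Ndufb5 and Atp5j are low in HFHS replicates 1 and 3 and higher in HFHS replicate 2, whereas Atp5s lies between 6.37 and 6.49 in all 3 HFHS libraries, above CNT livers at 6.16 to 6.21.

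The number of these calls depended on which libraries were in the fit. Without HFHS replicate 2 the fit called 55 of the 74 genes between HFHS and CNT livers, where it called 29.4% of all genes (3717 of 12637). It called 0 without HFHS replicate 1, HFHS replicate 3, CNT replicate 1 or CNT replicate 2, where it called 1.07% to 4.26% of all genes. It called 1 without CNT replicate 3, curcumin replicate 1, calcitriol replicate 1 or calcitriol replicate 2, 2 without curcumin replicate 2 or calcitriol replicate 3, and 3 without curcumin replicate 3, where it called 7.17% to 10.8% of all genes. Over 20 other settings of the fit the adjusted p ran from 0.000537 to 0.555 for Ndufb11, which passed in 14, from 0.00249 to 0.672 for Atp5j, which passed in 9, from 0.00109 to 0.79 for Ndufb5, which passed in 5, and from 0.0335 to 0.412 for Atp5s, which passed in 3. HFHS replicates 1 and 3 had the highest matrix markers and also the lower subunit values of their group. Their mean deviations over the 74 genes were -0.20 and -0.24, against 0.094 in HFHS replicate 2. Without these libraries the median of the 74 differences was -0.017. Leaving them out had to raise the median for that reason alone, so the part of the matrix markers was not tested.

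Promoters of subunit genes are shown because the genes stood high or low together, and because the nuclear factors NRF1, GABP (an ETS factor) and YY1 are known regulators of respiratory chain genes. Sequences are the 300 bases around the start of a gene in RefSeq on GRCm38.p6. They were searched on both strands for the letters of 3 motifs: GCGC, any base, then TGCGC (NRF1), CCGGAAG (ETS) and AAGATGGC (YY1). Matches to different motifs did not overlap in the promoters shown. Ndufb11, Ndufb5 and Atp5j, the last with 2 starts, were called between HFHS and CNT livers, Sdhb had the largest difference between them, and Ndufs6 is shown as one with both an NRF1 and a YY1 match. Capitals mark the matches, and sequences run 5′ to 3′ on the strand of the gene.
Ndufb11 (chrX:20617570-20617869, minus strand): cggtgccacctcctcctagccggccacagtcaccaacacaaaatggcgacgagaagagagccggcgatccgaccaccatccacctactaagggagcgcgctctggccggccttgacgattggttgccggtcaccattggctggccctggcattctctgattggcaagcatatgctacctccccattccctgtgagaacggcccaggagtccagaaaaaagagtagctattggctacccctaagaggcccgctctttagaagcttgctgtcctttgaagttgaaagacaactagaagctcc
Ndufb5 (chr3:32736813-32737112, plus strand): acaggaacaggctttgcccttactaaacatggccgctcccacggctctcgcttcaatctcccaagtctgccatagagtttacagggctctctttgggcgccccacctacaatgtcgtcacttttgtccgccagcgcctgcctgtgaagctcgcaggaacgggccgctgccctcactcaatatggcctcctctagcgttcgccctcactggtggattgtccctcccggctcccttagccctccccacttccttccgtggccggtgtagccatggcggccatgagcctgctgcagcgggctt
Atp5j, downstream start (chr16:84834927-84835226, minus strand): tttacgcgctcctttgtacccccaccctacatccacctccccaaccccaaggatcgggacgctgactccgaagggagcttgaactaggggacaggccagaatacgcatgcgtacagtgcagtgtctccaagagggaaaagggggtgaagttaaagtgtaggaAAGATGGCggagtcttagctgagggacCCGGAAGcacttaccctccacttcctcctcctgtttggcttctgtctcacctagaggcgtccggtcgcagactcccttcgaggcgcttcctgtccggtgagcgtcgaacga
Atp5j, upstream start (chr16:84835576-84835875, minus strand): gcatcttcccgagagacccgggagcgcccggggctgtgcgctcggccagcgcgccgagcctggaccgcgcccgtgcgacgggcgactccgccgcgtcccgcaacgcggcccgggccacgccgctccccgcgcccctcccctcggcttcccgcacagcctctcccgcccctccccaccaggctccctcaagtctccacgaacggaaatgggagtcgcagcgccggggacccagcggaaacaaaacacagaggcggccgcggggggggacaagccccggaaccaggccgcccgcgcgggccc
Sdhb (chr4:140961021-140961320, plus strand): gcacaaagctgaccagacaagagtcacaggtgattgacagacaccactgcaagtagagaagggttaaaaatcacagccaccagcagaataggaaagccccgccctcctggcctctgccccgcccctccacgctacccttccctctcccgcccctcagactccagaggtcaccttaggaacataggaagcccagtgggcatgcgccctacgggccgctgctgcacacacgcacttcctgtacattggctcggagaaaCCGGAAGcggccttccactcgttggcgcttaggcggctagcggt
Ndufs6 (chr13:73328433-73328732, minus strand): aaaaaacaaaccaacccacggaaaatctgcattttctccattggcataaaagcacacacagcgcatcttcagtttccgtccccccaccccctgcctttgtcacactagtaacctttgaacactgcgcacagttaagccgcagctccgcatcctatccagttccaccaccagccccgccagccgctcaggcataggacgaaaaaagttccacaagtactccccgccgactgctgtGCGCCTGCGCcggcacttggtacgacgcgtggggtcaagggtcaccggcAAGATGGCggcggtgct
The promoters of Ndufb11 and Ndufb5 held none of these letters, that of Sdhb held 1 ETS match, that of the downstream start of Atp5j 1 ETS and 1 YY1 match, that of its upstream start none, and that of Ndufs6 1 NRF1 and 1 YY1 match. Over 66 promoters of 61 subunit genes, the NRF1 letters occurred in 25.8%, the ETS letters in 22.7% and the YY1 letters in 13.6%, and at least 1 of them in 53.0%. Over 12664 promoters of all genes tested the shares were 9.43%, 16.7% and 4.23%, and 27.0% for at least 1, with a median GC content of 60.3%, against 57.5% in the subunit promoters. Over all 32851 promoters of the table they were 4.60%, 8.86%, 2.75% and 14.7%. A match is a run of letters, not a site shown to be bound in these livers.

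Complex I takes electrons from NADH. Its 36 genes had a median difference of -0.23 in HFHS against CNT livers, 0.24 in curcumin against HFHS livers and -0.014 in calcitriol against HFHS livers. The 7 core genes, among whose products are those that carry the flavin and the iron-sulfur clusters, stood beside the 29 accessory genes with medians of -0.20 and -0.23 in HFHS against CNT livers and of 0.25 and 0.24 in curcumin against HFHS livers. The difference between core and accessory genes was not tested. Ndufv1, whose product binds NADH, stood at 11.24, 11.32 and 11.11 in curcumin livers, at 11.03, 10.99 and 10.88 in calcitriol livers, at 10.83, 11.25 and 10.86 in HFHS livers and at 11.12, 11.16 and 11.12 in CNT livers. HFHS replicate 2 was as high as the curcumin libraries, and HFHS replicates 1 and 3 were the lowest of the 12. Ndufs1, the largest iron-sulfur subunit, stood at 11.002, 11.15 and 11.11 in curcumin livers, at 11.02, 11.03 and 10.74 in calcitriol livers, at 10.86, 11.17 and 10.82 in HFHS livers and at 11.04, 11.15 and 10.91 in CNT livers. Its groups overlapped in every comparison, and its HFHS against CNT difference of -0.084 ± 0.11 was, after that of Ndufs5, the closest to 0 of the 74 genes.

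Ndufs8, an iron-sulfur subunit close to where ubiquinone binds, stood at 9.99, 10.03 and 9.78 in curcumin livers, at 9.72, 9.64 and 9.66 in calcitriol livers, at 9.51, 9.94 and 9.51 in HFHS livers and at 9.83, 9.86 and 10.11 in CNT livers. It was lowest in HFHS replicates 1 and 3, and HFHS replicate 2 reached the range of the CNT and curcumin libraries. Ndufs3, a core subunit of the peripheral arm, stood at 9.36, 9.64 and 9.44 in curcumin livers, at 9.30, 9.23 and 9.15 in calcitriol livers, at 8.996, 9.31 and 9.01 in HFHS livers and at 9.31, 9.38 and 9.45 in CNT livers. All 3 curcumin libraries lay above all 3 HFHS libraries, and its difference of 0.38 ± 0.095 had the lowest adjusted p of the 74 genes in that comparison, 0.0724. The transcript of Ndufs3 shares 39.7% of its 50-base stretches with transcripts of other genes, so its value could hold reads of those. Ndufa4, counted here by its symbol, is known as a subunit of complex IV. It stood at 11.70, 11.83 and 11.56 in curcumin livers, at 11.42, 11.53 and 11.31 in calcitriol livers, at 11.43, 11.59 and 11.30 in HFHS livers and at 11.64, 11.70 and 11.86 in CNT livers, lowest in HFHS replicate 3 and calcitriol replicate 3. Ndufs5, an accessory subunit, stood at 6.47, 6.53 and 6.25 in curcumin livers, at 6.09, 6.04 and 6.05 in calcitriol livers, at 6.07, 6.50 and 6.01 in HFHS livers and at 6.16, 6.08 and 6.34 in CNT livers. Its HFHS and CNT means were the closest of the 74 genes, with HFHS replicate 2 second only to curcumin replicate 2, and its difference of 0.36 ± 0.13 was the largest between curcumin and calcitriol livers.

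Complex II, succinate dehydrogenase, is also an enzyme of the citrate cycle and has no subunit in mitochondrial DNA. Its 4 genes had a median difference of -0.18 in HFHS against CNT livers, 0.17 in curcumin against HFHS livers and -0.033 in calcitriol against HFHS livers, and the HFHS against CNT median was 0.024 under quantile normalization. Sdhb, the iron-sulfur subunit (chr4:140961203-140979193, plus strand), stood at 11.37, 11.46 and 11.21 in curcumin livers, at 11.17, 11.07 and 10.83 in calcitriol livers, at 10.89, 11.34 and 10.82 in HFHS livers and at 11.43, 11.47 and 11.43 in CNT livers. All HFHS libraries lay below all CNT libraries, by little for replicate 2 and by much for replicates 1 and 3. The difference of -0.42 ± 0.13 between HFHS and CNT livers was the largest of the 74 genes and was not called (adjusted p = 0.0544). Sdha, the flavoprotein that oxidises succinate, stood at 13.09, 13.12 and 13.02 in curcumin livers, at 13.07, 12.91 and 12.72 in calcitriol livers, at 12.79, 13.19 and 12.82 in HFHS livers and at 13.13, 13.20 and 12.91 in CNT livers. HFHS replicate 2 was second only to CNT replicate 2, CNT replicate 3 fell among the calcitriol libraries, and the HFHS against CNT difference was -0.15 ± 0.13, or 0.14 under quantile normalization. The membrane anchors Sdhc and Sdhd had differences of -0.19 ± 0.10 and -0.17 ± 0.12 in the same comparison.

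Complex III hands electrons from ubiquinol to cytochrome c. Its 8 genes had a median difference of -0.26 in HFHS against CNT livers, the lowest of the 5 complexes, and of 0.27 in curcumin against HFHS livers, the highest of the 5. Uqcrfs1, the Rieske iron-sulfur protein, stood at 11.50, 11.62 and 11.39 in curcumin livers, at 11.29, 11.32 and 11.16 in calcitriol livers, at 11.17, 11.44 and 11.04 in HFHS livers and at 11.44, 11.51 and 11.53 in CNT livers. Uqcrc1, a core protein that faces the matrix, stood at 11.89, 11.99 and 11.72 in curcumin livers, at 11.70, 11.67 and 11.42 in calcitriol livers, at 11.48, 11.85 and 11.45 in HFHS livers and at 11.83, 11.92 and 11.83 in CNT livers. In both genes every curcumin library lay above every calcitriol library, and HFHS replicate 2 lay within the range of curcumin livers. Uqcrq, a small subunit, stood at 11.54, 11.74 and 11.33 in curcumin livers, at 11.26, 11.29 and 11.26 in calcitriol livers, at 11.02, 11.39 and 11.02 in HFHS livers and at 11.29, 11.28 and 11.58 in CNT livers. Its largest value was in curcumin replicate 2, and HFHS replicate 2 was above curcumin replicate 3, so that curcumin and HFHS livers overlapped. The Uqcrq difference of 0.39 ± 0.13 in curcumin against HFHS livers was the largest of the 74 genes there and was not called (adjusted p = 0.114).

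Complex IV, cytochrome c oxidase, reduces oxygen. Its 11 genes had a median difference of -0.22 in HFHS against CNT livers, 0.25 in curcumin against HFHS livers and 0.0097 in calcitriol against HFHS livers. Cox5a, a subunit on the matrix side, stood at 10.82, 11.03 and 10.78 in curcumin livers, at 10.61, 10.67 and 10.50 in calcitriol livers, at 10.46, 10.79 and 10.43 in HFHS livers and at 10.82, 10.81 and 11.02 in CNT livers. All HFHS libraries lay below all CNT libraries, with a difference of -0.32 ± 0.11 (adjusted p = 0.0682). Cox7c, a small membrane subunit, stood at 5.38, 5.37 and 5.42 in curcumin livers, at 5.33, 5.34 and 5.15 in calcitriol livers, at 5.32, 5.14 and 5.16 in HFHS livers and at 5.52, 5.47 and 5.43 in CNT livers. It had the smallest p of the complex, with all 3 HFHS libraries below all CNT libraries, a difference of -0.27 ± 0.084 and an adjusted p of 0.0564. Its highest HFHS library was replicate 1, whereas 70 of the 74 genes stood above their own mean in HFHS replicate 2. The transcript of Cox7c shares 23.03% of its 50-base stretches with transcripts of 3 other genes, and that of Cox5a 32.05%. Their values could therefore hold reads of other genes or have lost reads to them. The part of this in the level and order of Cox7c was not tested. Cox7a2l, of the Cox7a family, stood at 9.08, 9.17 and 8.95 in curcumin livers and at 8.86, 8.94 and 8.84 in calcitriol livers. It stood at 8.87, 8.95 and 8.92 in HFHS livers and at 9.08, 9.08 and 9.17 in CNT livers. HFHS livers lay below CNT livers with no overlap, and below curcumin livers by a margin that vanishes on rounding between HFHS replicate 2 and curcumin replicate 3, and the differences were -0.19 ± 0.066 against CNT livers (adjusted p = 0.071) and 0.15 ± 0.066 for curcumin against HFHS livers (adjusted p = 0.183).

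Several complex IV subunits, and the c subunit of ATP synthase, have more than 1 gene, with forms known for liver, heart and skeletal muscle or testis. Among the complex IV pairs the form known from liver was the higher one. Per kilobase of exon, mean values over 12 libraries were 11.82 for Cox6a1 and 0.58 for its muscle form Cox6a2, 11.59 for Cox6b1 and 2.75 for its testis form Cox6b2, and 11.10 for Cox8a and 2.92 for its muscle form Cox8b (log2). For the Cox7a family they were 10.29 for Cox7a2, 8.43 for Cox7a2l and 5.18 for the muscle form Cox7a1. Cox6a1 stood at 11.46, 11.68 and 11.30 in curcumin livers, at 11.22, 11.24 and 11.15 in calcitriol livers, at 11.14, 11.33 and 11.06 in HFHS livers and at 11.28, 11.33 and 11.47 in CNT livers. Cox6b1 stood at 11.24, 11.36 and 11.07 in curcumin livers, at 11.02, 10.92 and 10.87 in calcitriol livers, at 10.97, 11.20 and 10.87 in HFHS livers and at 11.13, 11.16 and 11.28 in CNT livers. Both followed the common order, with the calcitriol libraries below all curcumin libraries and HFHS replicate 2 within the curcumin range. Cox7a2 stood at 10.38, 10.48 and 10.20 in curcumin livers, at 10.03, 10.10 and 10.02 in calcitriol livers, at 10.10, 10.22 and 9.98 in HFHS livers and at 10.21, 10.30 and 10.45 in CNT livers. Cox8a stood at 10.56, 10.81 and 10.36 in curcumin livers, at 10.34, 10.29 and 10.30 in calcitriol livers, at 10.15, 10.44 and 10.15 in HFHS livers and at 10.45, 10.45 and 10.53 in CNT livers. In Cox8a the 3 HFHS libraries lay below the CNT libraries, replicate 2 only just. Cox7a1 stood at 4.53, 4.22 and 4.21 in curcumin livers, at 4.26, 4.12 and 3.93 in calcitriol livers, at 4.16, 4.20 and 4.42 in HFHS livers and at 4.39, 4.47 and 4.36 in CNT livers. Cox7a1 was the weakest of the 74 genes, with a mean of 4.27, followed by Cox7c, with 5.34.

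Below the threshold were 7 genes. Cox6b2, at 2.74 to 3.35, and Atp5g2, at 2.69 to 3.06, lay closest to it. Cox6a2 was at -0.01 to 0.15, and Atp5l, a membrane subunit of ATP synthase, at 0.85 to 0.98. Of the 50-base stretches of the Atp5l transcript 84.8% also occur in transcripts of 14 other genes, and of those of Atp5g2 38.4%, so reads of either could have been assigned elsewhere. Cox7b2 and Cox8c were listed at 0. Cox8b stood at 1.96 in HFHS replicate 3 and 1.81 in calcitriol replicate 1, against 1.34 to 1.38 in the other 10 libraries. The adipocyte sum was also highest in these 2 libraries. Of 3 brown fat markers, Ucp1 stood at 3.57 and 3.32 and Cidea at 2.15 and 1.79 in them. The other 10 libraries had 2.13 to 2.16 and 1.41 to 1.52. Elovl3, the remaining marker, stood at 6.03 and 6.69 in them, within the 5.67 to 7.64 of the other libraries. The cause was not tested.

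Complex V, ATP synthase, had a median difference over 15 genes of -0.25 in HFHS against CNT livers, 0.23 in curcumin against HFHS livers and -0.031 in calcitriol against HFHS livers. Atp5b, the catalytic beta subunit of the head, stood at 14.23, 14.30 and 14.13 in curcumin livers, at 14.10, 14.08 and 13.90 in calcitriol livers, at 14.001, 14.25 and 13.93 in HFHS livers and at 14.30, 14.34 and 14.17 in CNT livers. Atp5a1, the alpha subunit, stood at 13.94, 14.04 and 13.88 in curcumin livers, at 13.86, 13.78 and 13.55 in calcitriol livers, at 13.58, 13.98 and 13.62 in HFHS livers and at 13.91, 13.98 and 13.85 in CNT livers. Both had calcitriol libraries below all curcumin libraries, and in both HFHS replicate 2 was higher than CNT replicate 3. Their HFHS against CNT differences were -0.21 ± 0.12 and -0.19 ± 0.13, and turned to 0.11 and 0.081 under quantile normalization. The 4 genes of the peripheral stalk had the lowest median of the parts of the enzyme, -0.31 in HFHS against CNT livers, next to -0.25 in the 5 genes of the head and central stalk and -0.17 in the 2 tested genes of the c ring. Differences between these parts were not tested.

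The c subunit is encoded by 3 genes with the same mature protein. Atp5g3 stood at 12.33, 12.44 and 12.21 in curcumin livers, at 12.09, 12.04 and 11.82 in calcitriol livers, at 11.90, 12.28 and 11.87 in HFHS livers and at 12.21, 12.27 and 12.28 in CNT livers. Its calcitriol libraries lay below all curcumin libraries, and its difference of 0.34 ± 0.12 was the largest of complex V between those groups. Atp5g1 stood at 7.24, 7.21 and 7.14 in curcumin livers, at 7.05, 7.001 and 7.03 in calcitriol livers, at 7.09, 7.30 and 7.07 in HFHS livers and at 7.23, 7.07 and 7.45 in CNT livers, and was lower in all 3 calcitriol libraries than in any HFHS library (-0.12 ± 0.097, adjusted p = 0.499). Per kilobase of exon, the means over all libraries were 11.02 for Atp5g3, 4.86 for Atp5g1 and 2.09 for Atp5g2 (log2). Atp5s, counted here by its symbol, stood apart from the other genes listed for the complex. It was at 6.19, 6.33 and 6.32 in curcumin livers and at 6.22, 6.26 and 6.16 in calcitriol livers, all below the 3 HFHS libraries given above. Its differences against HFHS livers were -0.15 ± 0.075 with curcumin (adjusted p = 0.221) and -0.22 ± 0.075 with calcitriol (adjusted p = 0.119).

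Curcumin livers were compared with HFHS livers to see what the curcumin liposomes changed. No subunit gene was called by limma, where 0.301% of all genes were, and the lowest adjusted p was 0.0724. Nearly all genes stood higher with curcumin all the same: 73 of 74 differences were above 0, as were 49.2% of all genes, with a median of 0.24 (a level 18.2% higher) against -0.0034 over all genes tested. At an unadjusted p under 0.05, 46 genes were higher, where 11.5% of all genes were. Only Ndufb11, Ndufs3, Cox7a2l and Cox7c had all curcumin libraries above all HFHS libraries, where 11.9% of all genes did. In curcumin livers Ndufb11 stood at 10.22, 10.33 and 10.10. Ndufb5 stood at 10.12, 10.19 and 10.02 and Atp5j at 10.72, 10.84 and 10.60 in these livers. All of these values lay above HFHS replicates 1 and 3, and those of Ndufb11 also above HFHS replicate 2. Without HFHS replicate 2, 58 of the 74 genes were called higher, in 31 of 36 genes of complex I, 2 of 4 of complex II, 8 of 8 of complex III, 8 of 11 of complex IV and 9 of 15 of complex V. The same fit called 25.4% of all genes (3207) in either direction. Without HFHS replicates 1 and 3 the median was 0.036.

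Calcitriol livers were compared with HFHS livers with the same question, and the subunit genes showed no common direction. There were 30 differences above 0, as in 49.5% of all genes, and 44 below, with a median of -0.017, and no gene was called, where 2.21% of all genes were. By limma at an unadjusted p under 0.05 there was 1 lower gene, Atp5s, where 11.6% of all genes were lower. Atp5g1 and Atp5s were the 2 genes whose calcitriol libraries all lay below the HFHS libraries, which held for 11.8% of all genes. Differences ran from -0.22 to 0.14, the top being Ndufb11 at 0.14 ± 0.093. In calcitriol livers Ndufb11 stood at 10.04, 10.02 and 9.97. Ndufb5 stood at 9.97, 9.91 and 9.90 and Atp5j at 10.51, 10.59 and 10.36 in these livers. For all 3 genes the values lay below HFHS replicate 2 and below every CNT library, and at or above HFHS replicates 1 and 3. The sign of the median depended on the libraries in the fit: it was 0.095 without HFHS replicate 2, with 67 differences above 0 and 1 gene called where 17.4% of all genes were, 0.035 without calcitriol replicate 3, 0.0025 with library medians set equal, and -0.24 without HFHS replicates 1 and 3.

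**Figure D4:**
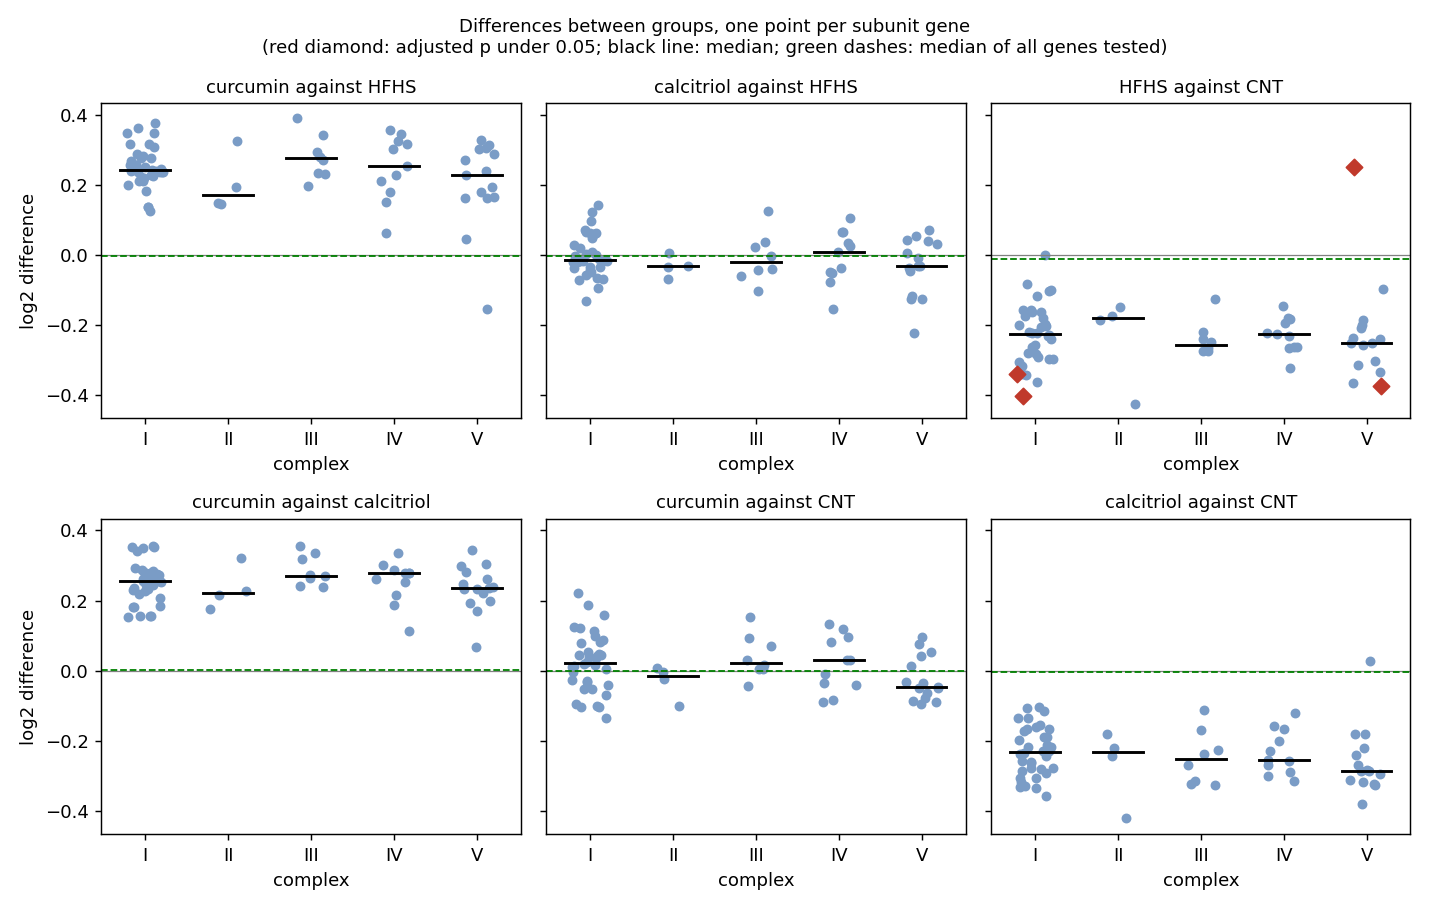
Log2 difference (vertical axis) of each of the 74 subunit genes in 6 comparisons, by complex, with the median of each complex as a black line, the median of all genes tested as green dashes and genes called at an adjusted p under 0.05 as red diamonds. Points lie above 0 for curcumin against both HFHS and calcitriol livers, except Atp5s in the first, and below 0 for HFHS and for calcitriol against CNT livers, except Atp5s in both, and red diamonds appear in HFHS against CNT alone.

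The treatments were also set against each other, without the HFHS libraries in the difference. All 74 genes were higher with curcumin than with calcitriol, as were 50.9% of all genes, with a median of 0.26 (19.4%) against 0.0037 over all genes tested. No subunit gene was called by limma, and the background was 0.0% of the 12637 genes, of which 1873 (14.8%) had an unadjusted p under 0.05. In 62 of 74 genes all 3 curcumin libraries lay above all 3 calcitriol libraries, where 14.9% of all genes did. Higher at an unadjusted p under 0.05 were 50 genes, against 7.49% of all genes. By complex the genes with no overlap were 29 of 36 genes of complex I, 3 of 4 of complex II, 8 of 8 of complex III, 10 of 11 of complex IV and 12 of 15 of complex V. The lowest adjusted p was 0.229, of Cox7a2, with a difference of 0.30 ± 0.091. The other end was Atp5s, with 0.067 ± 0.075. These values come from the fit of all 12 libraries, where HFHS libraries enter the shared estimate of the spread. With only the curcumin and calcitriol libraries in the limma fit, 214 genes (1.69%) were called. No subunit gene was among them, and the lowest adjusted p of a subunit gene was 0.0519. All 74 differences stayed above 0 under quantile normalization and without curcumin replicate 2 (median 0.19) or calcitriol replicate 3 (median 0.22), the libraries that lay highest and lowest of their groups.

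Set against CNT livers, curcumin livers showed no common direction and calcitriol livers stood lower in all subunit genes but Atp5s. Curcumin livers had 42 differences above 0, as in 49.5% of all genes, and 32 below, a median of 0.012 and no called gene, where 3.51% of all genes were called, and by limma 0 subunit genes had an unadjusted p under 0.05, where 18.6% of all genes did. Differences ran from -0.13 in Ndufb4 to 0.22 in Ndufs5, and the median turned to -0.051 without curcumin replicate 2 and to -0.020 without CNT replicate 1. Calcitriol livers had 73 differences below 0, as in 50.8% of all genes, and a median of -0.24 (15.5% lower). No gene was called by limma, where 4.04% of all genes were, while 41 were lower at an unadjusted p under 0.05, where 12.4% of all genes were. In 58 genes all calcitriol libraries lay below all CNT libraries, where 17.4% of all genes did. The lowest adjusted p was 0.0696, of Cox7a2l (-0.23 ± 0.066), and the largest difference -0.42 ± 0.13, of Sdhb (adjusted p = 0.0886). The fit called 14 genes here without HFHS replicate 2, where it called 9.04% of all genes, and 11 without HFHS replicates 1 and 3, where it called 9.39%, since these libraries enter the shared estimate of the spread. HFHS and calcitriol livers share the CNT libraries as their reference here, and curcumin and calcitriol livers share HFHS, so the comparisons are not independent.

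Other genes of the pathway were followed beside the subunits. Subunits that the symbols left out were read in the same way. Cox4i1, the largest nuclear subunit of complex IV, stood at 12.19, 12.28 and 11.99 in curcumin livers, at 11.90, 11.90 and 11.82 in calcitriol livers, at 11.82, 12.05 and 11.79 in HFHS livers and at 12.01, 12.09 and 12.25 in CNT livers. Cyc1, the cytochrome c1 of complex III, stood at 11.48, 11.56 and 11.29 in curcumin livers, at 11.30, 11.32 and 11.11 in calcitriol livers, at 11.09, 11.48 and 11.04 in HFHS livers and at 11.43, 11.44 and 11.49 in CNT livers. Both were lowest in HFHS replicates 1 and 3, and their HFHS against CNT differences, -0.23 ± 0.10 and -0.25 ± 0.12, were not called. Of 7 tested genes of this kind 1 fell in HFHS against CNT livers, where 5.36% of all genes did: Usmg5, a small ATP synthase subunit (-0.32 ± 0.095, adjusted p = 0.0477). Atpif1, the inhibitor of ATP synthase, had a difference on the other side, 0.17 ± 0.080 (adjusted p = 0.171). Of 13 subunits encoded in mitochondrial DNA 7 were tested, 5 were listed at 0 (mt-Atp6, mt-Atp8, mt-Co2, mt-Co3 and mt-Nd4l) and mt-Nd3 was below the threshold. Since mt-Co2, mt-Co3 and mt-Atp6 belong to the same transcripts as genes that were read at high levels, a listing at 0 here is no sign of absence. The 7 had medians of 0.22 in curcumin against HFHS livers, -0.26 in HFHS against CNT livers and 0.072 in curcumin against calcitriol livers, and none was called. The gene mt-Co1, the catalytic subunit of complex IV, stood at 17.004, 17.14 and 17.03 in curcumin livers, at 17.03, 16.98 and 16.72 in calcitriol livers, at 16.82, 17.18 and 16.78 in HFHS livers and at 17.17, 17.38 and 17.02 in CNT livers, again with HFHS replicate 2 high.

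Assembly factors build the complexes without being part of them. Of 48 tested, 1 rose in curcumin against HFHS livers, where 0.301% of all genes were called: Coa6, needed for the copper centre of complex IV, at 7.97, 8.30 and 8.02 in curcumin livers and at 7.29, 7.74 and 7.23 in HFHS livers. The groups did not overlap, and the difference was 0.68 ± 0.12 (adjusted p = 0.0479). Calcitriol livers had Coa6 at 7.64, 7.67 and 7.64 and CNT livers at 7.50, 7.55 and 7.65, so that all 3 curcumin libraries lay above the 9 others. In HFHS against CNT livers 2 of the 48 fell, where 5.36% of all genes did: Ndufaf4 (-0.52 ± 0.12, adjusted p = 0.022) and Ndufaf6 (-0.40 ± 0.10, adjusted p = 0.0334), both needed for complex I. Of 18 regulators of mitochondrial genes 3 fell in HFHS against CNT livers, where 5.36% of all genes did, and none rose, where 6.55% of all genes did. They were Polg2, a subunit of the mitochondrial DNA polymerase (-0.43 ± 0.082, adjusted p = 0.0148), the transcription factor Yy1 (-0.33 ± 0.074, adjusted p = 0.0223) and the mitochondrial RNA polymerase Polrmt (-0.29 ± 0.071, adjusted p = 0.028). The coactivator Ppargc1a (-0.20 ± 0.12), the mitochondrial DNA packaging factor Tfam (-0.13 ± 0.076) and Nrf1 (-0.066 ± 0.084) were not called there. Of 17 citrate cycle and pyruvate dehydrogenase genes 1 fell, Pdhb, a subunit of pyruvate dehydrogenase, both in HFHS (-0.31 ± 0.091, adjusted p = 0.0467) and in calcitriol livers (-0.39 ± 0.091, adjusted p = 0.0363) against CNT livers, where 5.36% of all genes fell in HFHS livers and 4.04% were called in either direction in calcitriol livers. Of 4 tested genes of adenine nucleotide carriers and uncoupling proteins, 1 was called against CNT livers. Of all genes, 3.51% were called in either direction in curcumin livers and 4.04% in calcitriol livers, and 6.55% rose in HFHS livers. Ucp2, an uncoupling protein of the inner membrane, rose against CNT livers in curcumin (0.79 ± 0.14, adjusted p = 0.0106), calcitriol (0.70 ± 0.14, adjusted p = 0.0198) and HFHS livers (0.91 ± 0.14, adjusted p = 0.00751). It was at 10.87, 10.58 and 10.44 in curcumin livers, at 10.75, 10.40 and 10.44 in calcitriol livers, at 10.73, 10.88 and 10.61 in HFHS livers and at 9.78, 9.66 and 10.06 in CNT livers, with no overlap with CNT livers in any of the 3 groups. Over 20 other settings of the fit Coa6 passed against HFHS in 7, Ndufaf4 in 15, Ndufaf6 in 13, Polg2 in 16, Yy1 in 14, Polrmt in 14, Usmg5 in 7, Pdhb in 5 (HFHS) and 14 (calcitriol), and Ucp2 in 19 (curcumin), 15 (calcitriol) and 19 (HFHS). Without HFHS replicate 1 or without HFHS replicate 3, none of the HFHS against CNT calls named here but that of Ucp2 was made, and Coa6 was not called against HFHS.

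The size of the common shift was set beside that of other gene lists. In curcumin against HFHS livers the median was 0.24 over the 74 subunit genes, 0.12 over the assembly factors, 0.13 over citrate cycle genes, 0.12 over 76 mitochondrial ribosomal protein genes and 0.047 over 66 cytosolic ones. In HFHS against CNT livers the same lists had -0.23, -0.072, -0.023, -0.10 and -0.12. In curcumin against calcitriol livers they had 0.26, 0.13, 0.21, 0.17 and 0.11. These lists lay on the same side of 0 as the subunit genes, and nearer to it. The 8 hepatocyte markers had medians of 0.25, -0.32 and 0.0036 in the same 3 comparisons, on the side of the subunit genes in the first and second and near 0 in the third, and their part in the shift was not tested. The exons of a subunit gene, merged over its annotated transcripts, had a median total of 1652.5 bases, against 4427 over all genes tested. A single transcript can be shorter than this total, so the split below is not by transcript length. The 666 other protein-coding genes under 1500 exonic bases had medians of 0.088, -0.057 and 0.13 in the same 3 comparisons. Subunit genes under 1500 exonic bases had 0.25, -0.25 and 0.28, and those of 1500 or more 0.24, -0.23 and 0.24. The part of transcript length in the shift was not tested.

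**Figure D5:**
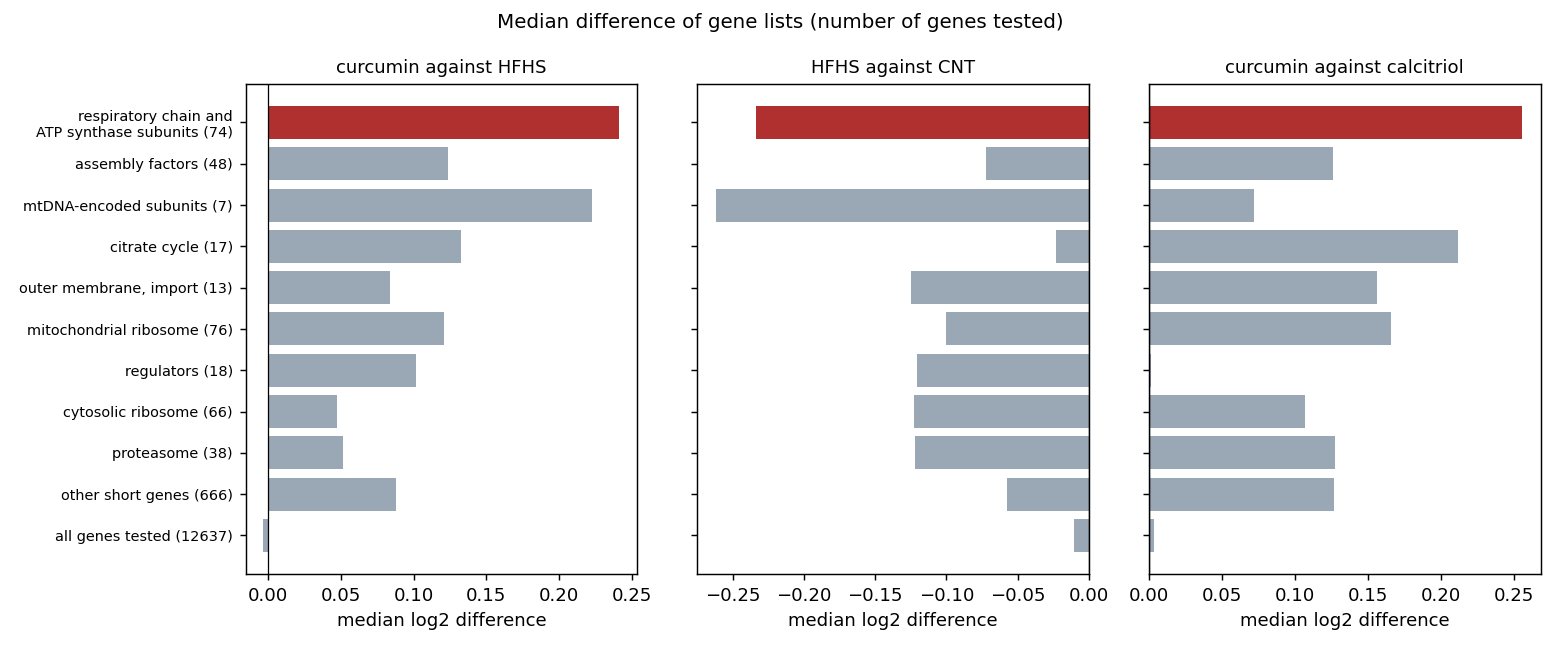
Median log2 difference (horizontal axis) of gene lists in 3 comparisons, with the number of tested genes in brackets and the 74 subunit genes in red. The red bars reach 0.24, -0.23 and 0.26, beyond the other lists shown except the 7 mitochondrially encoded subunits in HFHS against CNT livers, and all genes tested lie near 0.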

How the data were processed

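RNA was extracted from frozen livers and sequenced by the authors, 3 libraries in each of 4 groups taken from the sample titles. The deposited files hold 1 log2 value per gene and library, with no counts and no statement of the transformation. The submitters' processing notes name STAR 2.4.0d, DESeq2 1.8.1 and GRCm38 without saying what each was used for. Low genes sit on floors of their own, as after a regularized log2 transformation, so differences of weak genes may be understated. Identifiers were matched to GENCODE M21 (GRCm38). Of 45792 identifiers 23411 were listed at 0 in all libraries, and 12637 genes reached 3.32 in 3 or more.

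All 12 libraries entered 1 linear model with a mean for each group, fitted in limma 3.58.1 (R 4.3.3) with trend and robust estimation, two-sided, with Benjamini-Hochberg adjustment over all 12637 genes and a threshold of 0.05. No further scaling was applied. The model was also run on simulated data, in which genes were drawn independently and a gene had the same spread in all groups. Those data lack the common movement of the subunit genes and the wider spread of HFHS livers. They therefore do not test the model under the conditions of these libraries. Subunit genes, gene lists and settings were chosen with earlier results of these data known, so no p-value is given for a list. Library values are given for called genes, the gene with the smallest p in each complex, core subunits and isoform sets by rule. Ndufs3, Ndufa4, Ndufs5, Coa6, mt-Co1, Cox4i1, Cyc1 and Ucp2 were added after their values were seen. A core subunit that the rule names is not reported here. Alternatives were other filters, limma options and normalizations, 2 groups only, a replicate block, and fits with libraries left out.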

Additional observations from a re-analysis of the deposited data

How the results depend on the processing

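The number of subunit genes called in HFHS against CNT livers, 4 as reported, was 2 with no filter on low values (5.18% of all genes called in that fit), 0 with only those 2 groups in the fit (0.103%), 8 with a replicate block (14.7%) and 0 without HFHS replicates 1 and 3 (0.538%), and 0 to 55 when each library was left out in turn (1.07% to 29.4%). In calcitriol against CNT livers it was 0 as reported, 2 with only those 2 groups (4.34% of all genes), 1 with the replicate block (4.96%), 11 without HFHS replicates 1 and 3 (9.39%), and 0 to 14 when each library was left out, the 14 beside 9.04% of all genes. Leaving out each library gave 0 to 58 in curcumin against HFHS livers (25.4% of all genes at the 58) and 0 to 1 in calcitriol against HFHS livers (17.4% at the 1). The block changed no other count of subunit genes. In curcumin against HFHS livers it called 242 of all genes (1.915%), against 38 (0.301%) without it. Whether the replicate numbers mark a pairing was not settled by correlations of deviations. Of 18 pairs of libraries with the same number 9 had a correlation over 0.1 (-0.383 to 0.372). Only 2 of 12 libraries correlated best with their own number in every other group.

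With HFHS replicate 2 as the only HFHS library, whose spread is then taken from the other groups, the median over all subunit genes was 0.036 in curcumin against HFHS livers (complex I to V: 0.018, -0.061, 0.036, 0.12 and 0.0092), -0.24 in calcitriol against HFHS livers (-0.24, -0.30, -0.24, -0.13 and -0.24) and -0.017 in HFHS against CNT livers (-0.0089, 0.052, 0.0016, -0.038 and -0.035). These medians were added after the data had been seen. Under quantile normalization the HFHS against CNT medians of complexes II, III and V were 0.024, -0.11 and -0.10. When each library was left out, the medians of curcumin against HFHS livers ran from 0.19 to 0.36 in complex IV and from 0.17 to 0.35 in complex V, and that of calcitriol against HFHS livers in complex V from -0.096 to 0.10.

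Among values of named genes under the alternatives, 28 changed sign, 1537 kept direction and side of the threshold, 35 passed the threshold that the reported value missed and 140 missed one it passed. In curcumin against HFHS livers without HFHS replicates 1 and 3, Ndufb5 was at -0.0012, Ndufs1 -0.085, Ndufv1 -0.026, Ndufs8 -0.0061, Sdha -0.11, Atp5a1 -0.024, Atp5b -0.025 and Atp5g1 -0.097. Under quantile normalization Sdha was at -0.084, Atp5a1 -0.023 and Atp5b -0.14 there. In HFHS against CNT livers without HFHS replicates 1 and 3, Uqcrq was at 0.011, Ndufs1 0.14, Ndufv1 0.11, Ndufs8 0.0017, Sdha 0.10, Atp5a1 0.065, Cox6b1 0.0054, Atp5g1 0.048 and Atp5g3 0.026. Under quantile normalization Ndufs1 was at 0.053, Sdha 0.14, Atp5a1 0.081, Atp5b 0.11, Cox6a1 0.0087 and Atp5g3 0.019. Without curcumin replicate 1, Cox7a1 was at -0.043 in curcumin against HFHS livers, and without CNT replicate 3, Atp5g1 was at 0.0045 (-0.19 to 0.0045 over all such fits) in HFHS against CNT livers. For these single genes the cause was not tested. Without counts, the part of sequencing depth cannot be given.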
